A study of Mus musculus with 20 samples.

Results

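The response of the isolated mouse heart to ischemia-reperfusion (IR) was measured here across 2 genotypes at once. All 10 IR hearts were compared with all 10 continuously perfused hearts (Con), and these 20 hearts are the whole RNA-seq series. The hearts came from mice aged 3 months, either wild-type C57BL/6J (WT) or fat-1 transgenic, and there were 5 hearts per group. The groups are named WT-Con and WT-IR for wild-type and Fat1-Con and Fat1-IR for transgenic hearts. The fat-1 transgene is the n-3 fatty acid desaturase of Caenorhabditis elegans, an enzyme that turns n-6 into n-3 polyunsaturated fatty acids, and the promoter that drives it is not given in the sources used here. Every heart, Con hearts included, was removed and perfused with buffer on a Langendorff apparatus, so none is an unperfused heart. Con hearts were perfused for 120 min, while IR hearts were equilibrated for 40 min, made globally ischemic for 20 min and reperfused for 1 h. The tissue is labelled heart, with no part of it named. The question was which genes respond to IR whichever genotype the heart has.

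When coronary flow stops, cardiomyocytes run short of oxygen and ATP, and the return of flow brings a burst of oxygen radicals, calcium overload and protein damage. Cells answer within minutes by transcribing immediate-early genes and, where proteins unfold, heat shock genes, which the factor HSF1 switches on. Endothelial cells sense the return of flow through shear stress, to which the factors KLF2 and KLF4 respond. Innate immune cells and endothelium carry the NF-kB and interferon programs that call leukocytes to the tissue. A buffer-perfused heart receives no blood, so its response comes from the cells already in the tissue.

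Expression is given as FPKM, fragments scaled to exon length and to the depth of the library. Fits used log2(FPKM + 0.1), on which scale changes of genes expressed below about that pseudocount are understated. A gene counted as upregulated or downregulated where limma, with genotype as a covariate, gave an adjusted p below 0.05 and the change exceeded 1.5-fold. The 18219 genes whose mean reached 0.1 FPKM were tested. Depth was 15626847 to 25993336 fragments assigned to genes per heart (median 19526068). In the shallowest heart a lone fragment is worth 0.0320 FPKM where the exons of a gene span 2 kb, so values near that level rest on single fragments. Cardiomyocyte markers summed to 19503 to 43817 FPKM in Con hearts and 18266 to 28792 FPKM in IR hearts, so cardiac muscle RNA was abundant in every heart. WT-Con 5, Fat1-IR 1 and Fat1-IR 4 stood apart. The first 2 had 15.1% and 13.9% of their fragments from the mitochondrial genome, against 28.4% to 39.3% in the other hearts, and Fat1-IR 4 was rich in lymphocyte and neutrophil markers. Counts are given with and without these 3 hearts.

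With the genotypes pooled, 783 genes changed after IR (4.3% of those tested), of which 516 were upregulated (2.83%) and 267 downregulated (1.47%). The upregulated genes included 13 of 41 heat shock chaperones, 9 of 30 immediate-early factors, the Kruppel-like factors Klf2 and Klf4, and Id1 and Id3. The downregulated genes included 23 of 46 interferon-stimulated antiviral genes, 8 of 26 chemokines (with 2 upregulated), the adhesion molecule Vcam1 and the growth factor Csf1. Fold changes over 2 were reached by 176 upregulated and 100 downregulated genes, and fold changes over 4 by 26 and 6. The median log2 fold change was 0.84 among the upregulated and -0.87 among the downregulated genes, beside 0.07 over all genes tested. Downregulated genes were the more abundant, with a median of 4.15 FPKM over all hearts against 1.21 FPKM for upregulated genes. Among genes under 1 FPKM, 3.29% were upregulated and 0.571% downregulated, and among genes of 10 to 100 FPKM 1.65% and 2.37%. Genes above 0 FPKM numbered 19749 to 21132 in Con hearts and 21152 to 22872 in IR hearts, without overlap. Its part in the calls of genes with low values was not tested. With a pseudocount of 1, 33.3% of the upregulated and 61.0% of the downregulated calls remained. Without the 3 hearts that stand apart, 572 genes were upregulated and 386 downregulated, among them 420 and 253 of the genes above.

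A gene was counted as shared when it was called in the pooled fit and also had the same sign and an unadjusted p under 0.05 in WT and in fat-1 hearts separately. This held for 373 upregulated genes (2.05% of those tested) and 210 downregulated genes (1.15%), and 366 and 284 were shared without the 3 hearts that stand apart. In 102 of the upregulated genes every IR heart was above every Con heart, and in 56 of the downregulated genes every IR heart was below. Over all genes tested such complete separation was found in 121 (0.664%) and 64 (0.351%). Of the pooled calls, 184 upregulated and 74 downregulated genes were called in neither genotype when the genotypes were contrasted one at a time in 4 group means.

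Icosl, the ligand of the T-cell costimulator ICOS, had the smallest p of all. It was at 12 to 18.3 FPKM (median 16.2) in Con hearts and 5.16 to 7.25 FPKM (median 6.41) in IR hearts, and the arms did not overlap. Its log2 fold change was -1.33 (standard error 0.09, adjusted p = 5.11e-08). Klf4, a transcription factor that keeps endothelium quiescent, was at 3.95 to 9.95 FPKM (median 5.84) in Con and 18.4 to 32.9 FPKM (median 25.5) in IR hearts. Every IR heart was above every Con heart. The log2 fold change was 2.02 (standard error 0.15, adjusted p = 6.59e-08), made up of 2.21 in WT and 1.82 in fat-1 hearts. Prkd2, a protein kinase D, was at 13.4 to 18.4 FPKM (median 14) in Con and 3.35 to 7.74 FPKM (median 5.80) in IR hearts. Again no hearts overlapped, and the log2 fold change was -1.33 (standard error 0.11, adjusted p = 2.26e-07). Gm49130, an antisense transcript over the 3′ end of the myosin gene Myh6, was at 0.255 to 2.36 FPKM (median 0.601) in Con and 4.42 to 18.7 FPKM (median 7.76) in IR hearts (log2 fold change 3.39, adjusted p = 1.11e-06). Whether the counting used strand is not stated, so its reads cannot be told apart from those of Myh6.

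**Figure D1:**
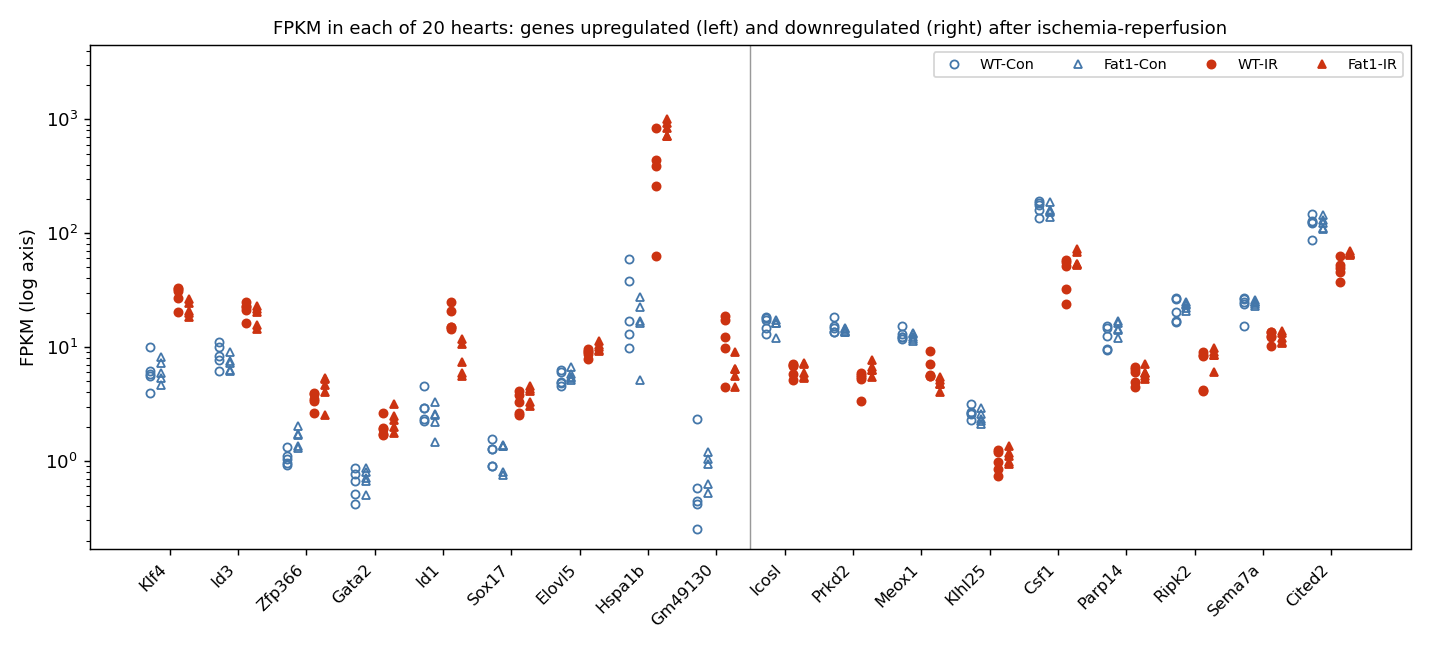
Each point is 1 heart and the vertical axis is FPKM on a log scale; open symbols are Con hearts, filled symbols IR hearts, circles WT and triangles fat-1. In the 9 upregulated genes (left) and the 9 downregulated genes (right) with the smallest p among genes without overlap, no IR heart lies within the range of the 10 Con hearts, and Hspa1b covers the widest range, from 5.11 to 998 FPKM.

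Heat shock chaperones held the largest share of upregulated members among the pathway lists, and Hspa1b had the largest fold change of all called genes. Of 41 chaperones and co-chaperones, 13 were upregulated, 0 were downregulated and 28 did not pass the test, with a median log2 fold change of 0.26. Hspa1b, an inducible HSP70 that binds unfolded proteins, was at 5.11 to 59.4 FPKM (median 17) in Con and 63.3 to 998 FPKM (median 712) in IR hearts. The lowest IR heart, WT-IR 4, was just above the highest Con heart, and the other IR hearts were at 259 FPKM or more. The log2 fold change was 4.75 (standard error 0.45, adjusted p = 1.11e-06). Its near-identical neighbour Hspa1a was at 5.35 to 48.4 FPKM (median 18.2) in Con and 30.8 to 498 FPKM (median 343) in IR hearts, with 9 of 10 IR hearts above the Con range (log2 fold change 3.77, adjusted p = 9.23e-06). Reads of the 2 copies can be split between them by the counting, so their separate values are uncertain.

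HSP70 works with partners, and these were higher too. Hsph1, the HSP110 that releases nucleotide from HSP70, was at 5.67 to 11.8 FPKM (median 7.97) in Con and 13.8 to 119 FPKM (median 80.0) in IR hearts, without overlap (log2 fold change 2.93, adjusted p = 1.11e-06). Dnajb1, the HSP40 that brings substrates to HSP70, was at 5.94 to 31.3 FPKM (median 12.2) and 17.7 to 251 FPKM (median 166), with WT-IR 4 at 17.7 FPKM the only IR heart inside the Con range. Its log2 fold change was 3.20 (standard error 0.38, adjusted p = 1.42e-05). Dnaja1, another HSP40, was at 7.44 to 14.2 FPKM (median 10.2) and 11.8 to 95.8 FPKM (median 55.7) (log2 fold change 2.11, adjusted p = 1.63e-05). Hsp90aa1, the inducible HSP90, was among the 5 most abundant upregulated genes, at 45.1 to 97.5 FPKM (median 58.4) in Con and 68.4 to 494 FPKM (median 289.8) in IR hearts (log2 fold change 1.90, adjusted p = 5.32e-05). Both HSP40 genes and Hsp90aa1 had 9 of 10 IR hearts above every Con heart.

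Smaller changes were called for the mitochondrial chaperonins Hspd1 (log2 fold change 0.63, adjusted p = 0.0031) and Hspe1 (0.96, adjusted p = 0.0239), the HSP70 exchange factor Bag3 (0.71, adjusted p = 0.0179), the HSP90 cofactors Chordc1 (0.62) and Ahsa2 (0.60), Hspa2 (0.61) and the small heat shock protein Hspb1 (0.81, adjusted p = 0.0464). The constitutive Hspa8 and Hsp90ab1 were not called. Hspa8 averaged 377 to 456 FPKM from Con to IR and Hsp90ab1 397 to 564 FPKM. Their log2 fold changes, which the fit takes from log2 values and not from these averages, were 0.24 and 0.46. Hspe1 was at 213 FPKM in WT-Con 5, above every IR heart, and the call of Hspb1 was lost in 21 of 37 alternative settings. Without the 3 hearts that stand apart 10 members were upregulated, and with median-of-ratios scaling 8 were.

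Of the 41 members, 39 had the larger log2 fold change in fat-1 hearts, and in 20 (48.8%) the interaction of genotype and IR reached an unadjusted p below 0.05, against 5.31% of all genes tested. No chaperone passed after adjustment over all genes. The median of the list was 0.02 in WT and 0.53 in fat-1 hearts. Relative to the mean of the Con hearts, the mean log2 level of the list was highest in Fat1-IR 1 (1.27) and stood at 0.16 to 0.90 in the remaining IR hearts, and among Con hearts WT-Con 3 (0.26) and WT-Con 5 (0.25) were highest. With the 3 hearts that stand apart left out, 37 of the 41 had the larger log2 fold change in fat-1 hearts and 23 (56.1%) an unadjusted interaction p below 0.05 in limma, against 7.49% of all genes tested, and the medians were 0.15 and 0.42. Of the 13 upregulated members 8 were shared, and Hspd1, Hspe1, Bag3, Chordc1 and Hspb1 were not. Hspb1 had log2 fold changes of 0.17 in WT and 1.45 in fat-1 hearts, and Hsph1 2.11 and 3.75.

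The promoters of these genes are shown because HSF1 binds repeats of the unit nGAAn in alternating orientation. A pair of such units, GAANNTTC or TTCNNGAA on either strand, was looked for in the 250 bases before each RefSeq start site (GRCm38.p6). It was present in 34.8% of 46 promoters of the chaperone list, 47.1% of the 17 promoters of its upregulated members and 27.6% of the 29 promoters of members not called. It was present in 12.8% of all 32851 promoters and in 10.3% of 13694 promoters of genes not called. Among called genes it was present in 11.6% of 447 promoters of upregulated genes and 13.96% of 222 promoters of downregulated genes. Over all called genes the pair was therefore not more frequent in upregulated than in downregulated genes. The windows below hold 60 bases, 5′ to 3′ on the gene's strand, from the 4 upregulated chaperones with the smallest p that hold a match, with the match in capitals. They lie at chr17:34959309-34959368 (minus strand) for Hspa1b, chr17:34972227-34972286 (minus) for Hspa1a, chr5:149636337-149636396 (minus) for Hsph1 and chr4:40722318-40722377 (plus) for Dnaja1.
Hspa1b: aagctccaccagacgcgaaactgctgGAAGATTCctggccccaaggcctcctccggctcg
Hspa1a: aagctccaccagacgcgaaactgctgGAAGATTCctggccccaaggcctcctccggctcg
Hsph1: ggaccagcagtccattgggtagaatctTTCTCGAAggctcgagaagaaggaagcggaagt
Dnaja1: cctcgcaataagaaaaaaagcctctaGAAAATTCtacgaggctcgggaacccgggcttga
The windows of Hspa1b and Hspa1a were the same sequence in all 60 bases. A match is a description of these letters and not evidence of binding.

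Immediate-early transcription factors, which are made from mRNAs induced without new protein, were upregulated in 9 of 30 cases, with 0 downregulated and a median log2 fold change of 0.39. Fos, a subunit of AP-1, was at 31.8 to 124 FPKM (median 44.3) in Con and 104 to 336 FPKM (median 238) in IR hearts, with 8 IR hearts above the Con range (log2 fold change 2.12, standard error 0.25, adjusted p = 1.26e-05). Its relative Fosb was at 3.10 to 14.5 FPKM (median 6.70) and 12 to 46.8 FPKM (median 32.4), with 9 IR hearts above the Con range (log2 fold change 2.08, adjusted p = 1.67e-05). Jun, which pairs with FOS proteins, was at 50.5 to 101 FPKM (median 64.3) and 90.5 to 266 FPKM (median 166) (log2 fold change 1.26, adjusted p = 3.53e-05). The orphan nuclear receptors Nr4a2 (log2 fold change 1.59, adjusted p = 3.33e-05) and Nr4a1 (1.17, adjusted p = 0.000162) were upregulated as well. Junb (0.62), Egr2 (0.72) and the antiproliferative factor Btg2 (0.64) changed less. Egr1 averaged 126 to 224 FPKM without passing the test (adjusted p = 0.157), and Atf3 averaged 239 to 333 FPKM (adjusted p = 0.189). Of the 9 called genes 5 were shared, and limma's interaction had an unadjusted p under 0.05 in 0 of the 9 and in 7 of all 30 members, and without Fat1-IR 1 in 1 of the 30. The median of the list was 0.08 in WT and 0.75 in fat-1 hearts, beside 0.04 and 0.08 over all genes tested. In 29 of the 30 members the log2 fold change was larger in fat-1 hearts. Without the 3 hearts that stand apart the medians were 0.05 and 0.65. Relative to the mean of the Con hearts, the mean log2 level of the 30 genes stood at -0.46 in WT-IR 4 and -0.34 in WT-IR 5, and at 0.43 to 1.11 in the remaining IR hearts, with WT-Con 3 the highest Con heart at 0.60.

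The ERK pathway carries its own brakes, and 4 of 15 of these were upregulated and 1 downregulated, with a median log2 fold change of -0.12. At an unadjusted p under 0.05 limma had 5 higher and 6 lower. Spry1, a Sprouty inhibitor of receptor kinase signaling, was at 1.76 to 4.35 FPKM (median 2.39) in Con and 3.92 to 8.74 FPKM (median 7.25) in IR hearts, with 9 IR hearts above the Con range (log2 fold change 1.43, adjusted p = 2.68e-06). Dusp6, the phosphatase of ERK, was at 2.83 to 5.14 FPKM (median 4.31) and 6.81 to 13.3 FPKM (median 11), without overlap (log2 fold change 1.28, adjusted p = 3.98e-06). Dusp1, a phosphatase of MAP kinases that glucocorticoids also induce, had a log2 fold change of 0.88 (adjusted p = 0.000104). Dusp10, a phosphatase of p38 and JNK, was the downregulated member (-0.88, adjusted p = 0.00704).

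Several transcription factors of endothelium were among the calls with the smallest p. Klf2, which laminar flow induces, was at 6.46 to 15.3 FPKM (median 8.64) in Con and 17.2 to 88.6 FPKM (median 40.0) in IR hearts, without overlap (log2 fold change 2.17, standard error 0.23, adjusted p = 3.31e-06). Klf2 and Klf4 were the 2 upregulated members of 13 Kruppel-like factors, and 0 were downregulated. Id1 and Id3 encode inhibitors of basic helix-loop-helix factors and are direct targets of BMP signaling through SMAD proteins. Id1 was at 1.46 to 4.58 FPKM (median 2.56) in Con and 5.59 to 25.0 FPKM (median 13) in IR hearts (log2 fold change 2.13, standard error 0.19, adjusted p = 6.71e-07). Id3 was at 6.16 to 11 FPKM (median 7.57) and 14.3 to 24.8 FPKM (median 21.3) (log2 fold change 1.34, standard error 0.12, adjusted p = 4.49e-07), and neither gene overlapped between the arms. Gata2, a factor of endothelium and blood, was at 0.422 to 0.865 FPKM (median 0.692) in Con and 1.70 to 3.19 FPKM (median 1.96) in IR hearts (log2 fold change 1.54, adjusted p = 4.49e-07). Sox17, a factor of arterial endothelium, was at 0.745 to 1.54 FPKM (median 1.27) and 2.54 to 4.56 FPKM (median 3.57) (log2 fold change 1.56, adjusted p = 7.12e-07). Both were separate in all 20 hearts. The homeobox gene Meox1 went the other way and was at 11.4 to 15.4 FPKM (median 12.2) in Con and 4.01 to 9.33 FPKM (median 5.51) in IR hearts (log2 fold change -1.15, adjusted p = 4.49e-07).

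In the list of BMP, SMAD and Notch targets 9 of 30 genes were upregulated and 0 downregulated (median log2 fold change 0.35). Besides Id1 and Id3 these were Id2 (0.76), the ligands Bmp2 (0.86) and Bmp4 (0.67), the inhibitory Smad6 (0.60), and the Notch genes Hey1, Lfng and Jag2. Hey1, a Notch target, was at 0.591 to 1.32 FPKM (median 0.949) in Con and 1.47 to 3.00 FPKM (median 2.22) in IR hearts, without overlap (log2 fold change 1.11, adjusted p = 8.1e-05). Lfng, which adds sugars to Notch receptors, had a log2 fold change of 1.34 (adjusted p = 8.29e-05) and the ligand Jag2 one of 0.61 (adjusted p = 0.000228). Without the 3 hearts that stand apart 8 members were upregulated.

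Genes of vessel tone and of the vessel surface changed as well. Of 25 vasoactive endothelial genes 3 were upregulated and 0 downregulated. Thbd, thrombomodulin, which turns thrombin toward anticoagulation, was at 9.87 to 18.7 FPKM (median 13.5) in Con and 19.4 to 33.6 FPKM (median 24.5) in IR hearts, without overlap (log2 fold change 0.90, adjusted p = 1.32e-05). Edn1, the vasoconstrictor endothelin, was at 2.43 to 3.24 FPKM (median 2.87) and 2.96 to 16.2 FPKM (median 8.08) (log2 fold change 1.39, adjusted p = 3.62e-05), with 0.91 in WT and 1.87 in fat-1 hearts. Ptgs1, the constitutive cyclooxygenase, had a log2 fold change of 0.62 (adjusted p = 0.00372). Nos3, the endothelial nitric oxide synthase, averaged 8.16 to 7.41 FPKM and was not called. The prostacyclin receptor Ptgir was lower instead, at 3.33 to 4.62 FPKM (median 3.81) in Con and 1.94 to 2.69 FPKM (median 2.12) in IR hearts, without overlap (log2 fold change -0.77, adjusted p = 2.21e-06). Cavin2, a coat protein of caveolae, was at 26.5 to 32.7 FPKM (median 30.9) and 41.1 to 63.8 FPKM (median 54.1), also without overlap (log2 fold change 0.79, adjusted p = 1.12e-06), and was the only called member of 10 caveolar genes. Rgcc, a cell cycle regulator of endothelium, was at 6.27 to 14.8 FPKM (median 9.88) and 20.3 to 32.0 FPKM (median 26.1) (log2 fold change 1.38, adjusted p = 1.14e-06).

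**Figure D2:**
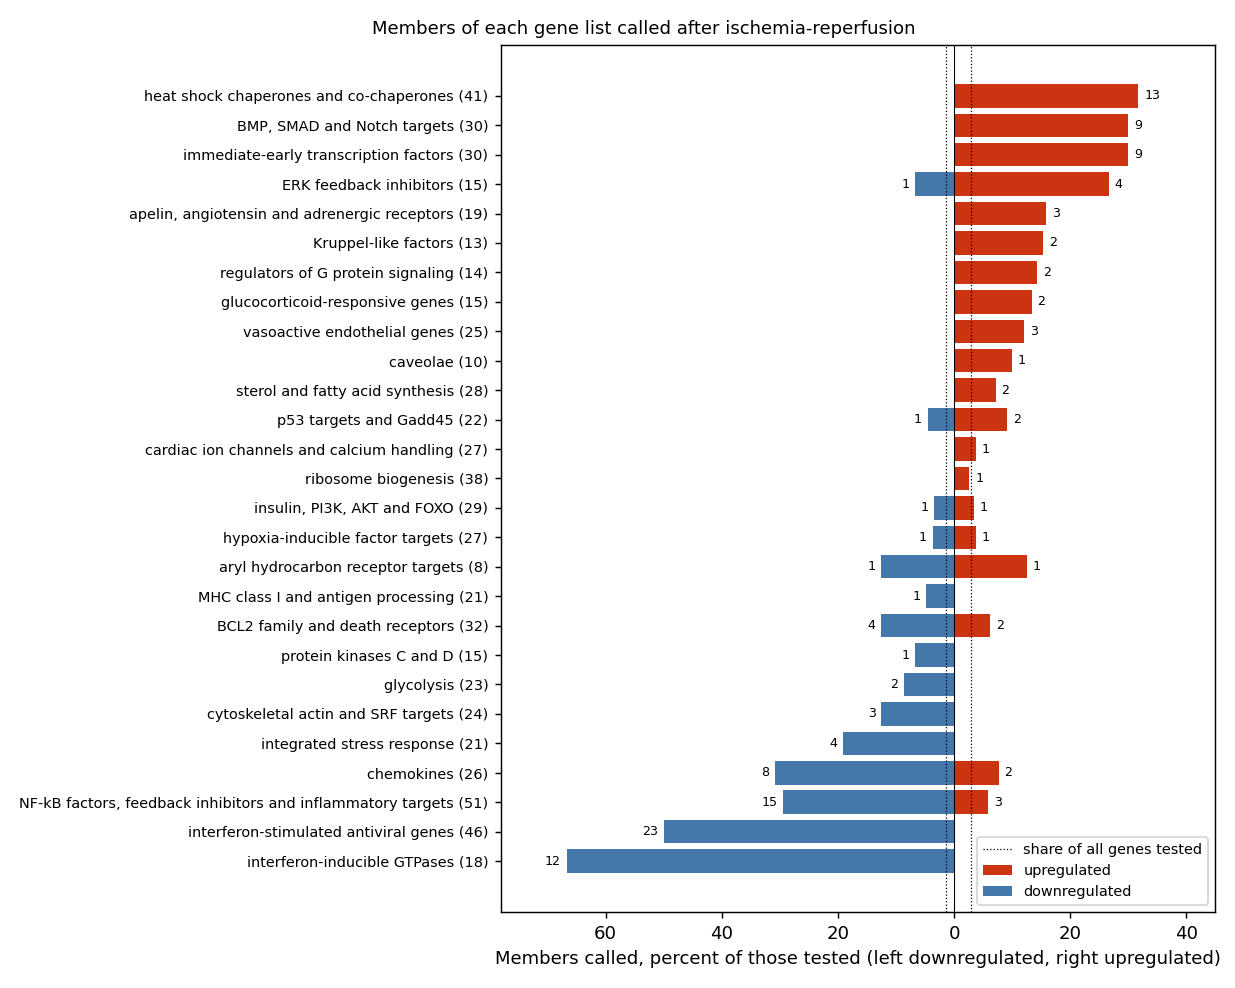
Bars give the percentage of tested members of each gene list that were upregulated (red, right) or downregulated (blue, left) with the genotypes pooled; the number tested is in parentheses, the number called is at the bar, and dotted lines mark 2.83% and 1.47% of all genes tested. The longest bars to the left are the interferon-inducible GTPases (12 of 18) and the interferon-stimulated antiviral genes (23 of 46), and the longest to the right are the heat shock chaperones (13 of 41).

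Interferon-stimulated genes were the largest downregulated group. These genes are induced by interferons, through a complex that holds IRF9, and act against viruses. Of 46 antiviral members 23 were downregulated and 0 upregulated, with a median log2 fold change of -0.63, and all 23 were shared. The median was -0.63 in WT and -0.79 in fat-1 hearts. Limma's interaction had an unadjusted p under 0.05 in 7 members (15.2%), against 5.31% of all genes tested. All 7 were lower in fat-1 hearts. Without the 3 hearts that stand apart it was 15 members (32.6%), against 7.49%. No member passed after adjustment over all genes. Parp14, an ADP-ribosyltransferase, was at 9.38 to 17.1 FPKM (median 14.3) in Con and 4.46 to 7.15 FPKM (median 5.91) in IR hearts (log2 fold change -1.18, standard error 0.11, adjusted p = 7.12e-07). Mx1, a GTPase that traps viral particles, was at 2.32 to 6.57 FPKM (median 4.95) and 0.537 to 1.90 FPKM (median 1.61) (log2 fold change -1.67, standard error 0.19, adjusted p = 7.1e-06). Neither overlapped between the arms. Ifit2, which binds viral RNA, was at 8.14 to 46.7 FPKM (median 30.9) and 5.92 to 10.4 FPKM (median 7.58) (log2 fold change -1.70, adjusted p = 1.48e-05). Here 7 IR hearts were below the Con range, and the lowest Con heart was WT-Con 3 with 8.14 FPKM. Ifit3 was at 9.38 to 49.2 FPKM (median 27.2) and 5.29 to 11.8 FPKM (median 7.35), with 8 IR hearts below the Con range (log2 fold change -1.71, adjusted p = 4.1e-05). Ifit1 (-1.71), the ubiquitin-like Isg15 (-1.33), the mitochondrial nucleotide kinase Cmpk2 (-1.39), Xaf1 (-1.10), the RNA sensor enzyme Oas1a (-0.87), viperin Rsad2 (-0.82) and the factor Irf7 (-0.84) were among the others. Irf9, the DNA-binding subunit of the complex, had a log2 fold change of -0.49 (adjusted p = 0.000744) and so stayed under the fold threshold.

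Interferon-inducible GTPases attack the vacuoles of intracellular parasites. Of 18 tested, 12 were downregulated and 0 upregulated (median -0.73), and 10 of the 12 were shared. Gbp5 was at 5.52 to 20.1 FPKM (median 15.6) in Con and 3.93 to 7.23 FPKM (median 4.94) in IR hearts, with 7 IR hearts below every Con heart (log2 fold change -1.42, adjusted p = 1.15e-05). Gbp4 was at 5.66 to 18.6 FPKM (median 12.3) and 3.05 to 6.97 FPKM (median 4.5) (log2 fold change -1.35, adjusted p = 2.35e-05), and Gbp3 at 6.79 to 21.2 FPKM (median 16.6) and 4.72 to 11.5 FPKM (median 6.6) (log2 fold change -1.13, adjusted p = 0.000273). Irgm2, a regulator of this family, was at 9.54 to 21.7 FPKM (median 16.8) and 6.06 to 11.9 FPKM (median 8.62) (log2 fold change -0.82, adjusted p = 0.000111). Tgtp1 had a log2 fold change of -1.20 (adjusted p = 0.000279), and it can share reads with its near-identical copy Tgtp2. WT-Con 3 was the lowest Con heart for these 5 genes. Of 21 genes of MHC class I and antigen processing, which interferon also induces, only the peptide transporter Tap1 was called, at -0.65 (adjusted p = 0.0223). That is 4.76% of the list, near the 4.3% called over all genes tested. Without the 3 hearts that stand apart the 2 interferon lists had 25 and 13 downregulated members.

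The interferon-stimulated response element is shown because it sits in the promoters of many of these genes. Its core, GAAANNGAAA on either strand, was present in 12.6% of 222 promoters of downregulated genes, 2.24% of 447 promoters of upregulated genes, 2.53% of 13694 promoters of genes not called and 2.98% of all 32851 promoters, over the same 250 bases. Among the promoters of the interferon GTPases it was present in 9 of 11, and among those of the antiviral list in 12 of 42. Of the antiviral genes it was found in 7 of 19 promoters of downregulated members and 5 of 23 of members not called. The windows below follow the same form, for the antiviral and GTPase genes with the smallest p that hold a match, leaving out near-identical copies. They lie at chr19:34583382-34583441 (plus strand) for Ifit3, chr19:34640779-34640838 (plus) for Ifit1, chr5:120907526-120907585 (minus) for Oas1a, chr3:142496744-142496803 (plus) for Gbp5 and chr11:58214888-58214947 (plus) for Irgm2.
Ifit3: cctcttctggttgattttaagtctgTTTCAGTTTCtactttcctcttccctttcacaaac
Ifit1: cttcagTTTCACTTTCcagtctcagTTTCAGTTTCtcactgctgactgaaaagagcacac
Oas1a: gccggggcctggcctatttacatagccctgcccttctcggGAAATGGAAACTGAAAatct
Gbp5: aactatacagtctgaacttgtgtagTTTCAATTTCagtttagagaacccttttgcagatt
Irgm2: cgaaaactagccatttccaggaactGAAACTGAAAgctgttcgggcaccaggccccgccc
The windows of Ifit1 and Oas1a each held 2 matches, which overlap in Oas1a.

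NF-kB factors drive cytokines, chemokines and adhesion molecules and also their own inhibitors. Of 51 such genes 15 were downregulated, 3 upregulated and 33 not called (median log2 fold change -0.38), and in 12 of the list the IR hearts were all below the Con hearts. Csf1, the growth factor of macrophages, was at 136 to 193 FPKM (median 160.0) in Con and 24.1 to 72.3 FPKM (median 53.3) in IR hearts (log2 fold change -1.72, standard error 0.15, adjusted p = 4.89e-07). Ripk2, the kinase of the NOD receptors, was at 16.7 to 26.7 FPKM (median 22.6) and 4.09 to 9.83 FPKM (median 8.51) (log2 fold change -1.57, standard error 0.15, adjusted p = 1.11e-06). Vcam1, an endothelial adhesion molecule for leukocytes, was at 47.0 to 74.5 FPKM (median 62.5) and 13.7 to 32.6 FPKM (median 26.0) (log2 fold change -1.33, adjusted p = 3.98e-06). All 3 were separate in every heart. Cd40, the costimulatory receptor, was at 4.54 to 12.2 FPKM (median 5.84) and 1.44 to 3.26 FPKM (median 2.46), also without overlap (log2 fold change -1.40, adjusted p = 1.94e-05). The adhesion molecules Icam1 (-1.39, adjusted p = 7.23e-05) and Sele (-1.25, adjusted p = 0.0058), the itaconate enzyme Acod1 (-1.96, adjusted p = 8.6e-05) and the cytokine Tnf (-0.84, adjusted p = 0.0097) were lower too.

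The factors themselves were in the same direction. Rela averaged 32.8 to 19.7 FPKM from Con to IR (log2 fold change -0.76, adjusted p = 0.000127), Nfkb2 15.5 to 10.5 FPKM (-0.62, adjusted p = 0.00487) and Relb 12.4 to 7.55 FPKM (-0.79, adjusted p = 0.0121). The 3 upregulated members were Il6, the inducible synthase Nos2 and the inducible cyclooxygenase Ptgs2. Il6 was at 10.4 to 15.2 FPKM (median 13.1) in Con and 12.7 to 83.0 FPKM (median 39.6) in IR hearts (log2 fold change 1.36, adjusted p = 0.00251), and Ptgs2 had a log2 fold change of 0.67 (adjusted p = 0.0208). Il1b averaged 30.2 to 23.7 FPKM and was not called (adjusted p = 0.152). Relative to the mean of the Con hearts, WT-IR 4 stood at -1.05 and WT-IR 5 at -1.16 in the mean log2 level of the NF-kB genes, and the remaining IR hearts at -0.58 to -0.09. The median of the list was -0.49 in WT and -0.24 in fat-1 hearts, and 46 of the 51 genes had the higher log2 fold change in fat-1 hearts. Without the 3 hearts that stand apart the medians were -0.52 and -0.31. Among the called genes 12 downregulated and 3 upregulated were shared.

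Of 26 chemokines 8 were downregulated and 2 upregulated (median -0.26), and 6 and 1 of these were shared. The median of the list was -0.73 in WT and -0.06 in fat-1 hearts, and -0.53 and -0.15 without the 3 hearts that stand apart. Relative to the mean of the Con hearts, the mean log2 level of the list was 0.84 in WT-Con 5. It was -0.80 in WT-IR 4, -1.01 in WT-IR 5 and 0.13 in WT-IR 3. Cx3cl1, the membrane-bound fractalkine of endothelium, was at 9.98 to 13.5 FPKM (median 11.8) in Con and 2.44 to 8.25 FPKM (median 6.05) in IR hearts, without overlap (log2 fold change -1.13, adjusted p = 0.000126). The interferon-induced T-cell attractants Cxcl9 (-1.46, adjusted p = 0.000525) and Cxcl10 (-1.36, adjusted p = 0.000728) were lower. Cxcl1, which attracts neutrophils, and Ccl2, which attracts monocytes, were among the most abundant downregulated genes. Ccl2 was at 233 to 486 FPKM (median 266) in Con and 62.7 to 259 FPKM (median 162) in IR hearts, with 9 IR hearts below the Con range (log2 fold change -0.95, adjusted p = 0.004), and Cxcl1 at 265 to 541 FPKM (median 389) and 108 to 319 FPKM (median 219.8) (log2 fold change -0.85, adjusted p = 0.00824). Cxcl12, the ligand of CXCR4, was higher in all 10 IR hearts, at 10.2 to 17.4 FPKM (median 15.1) in Con and 17.8 to 29.1 FPKM (median 23.4) in IR hearts (log2 fold change 0.64, adjusted p = 0.000668). Cxcl12 lost its call under median-of-ratios scaling and also without WT-Con 5.

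Other stress programs gave few calls or none. Of 23 ER chaperones and genes of the unfolded protein response, 28 NRF2 targets and metallothioneins, 19 clock genes, 26 cold-inducible and splicing factors and 31 proteasome subunits, 0 were called, and their medians were 0.32, 0.03, 0.09, 0.02 and -0.01. Over all genes tested 4.3% were called, and 0 in each list of this size is near that share. In the ER list Creld2 averaged 5.53 to 9.12 FPKM (adjusted p = 0.109), and among NRF2 targets Nqo1 averaged 35.7 to 28.4 FPKM (log2 fold change -0.32, adjusted p = 0.0298), under the fold threshold. At an unadjusted p under 0.05 limma had 3 ER genes higher and 1 lower, 5 and 5 NRF2 targets, 2 and 0 clock genes, 0 and 2 splicing factors and 0 and 1 proteasome subunits, and voom on fragments also called 0 in each list. Within single genotypes 9.84% (WT) and 8.38% (fat-1) of all genes tested were higher at such a p, and 5.09% and 4.17% lower. The share in the pooled fit is not given here. In the integrated stress response, which ATF4 carries, 4 of 21 members were downregulated and 0 upregulated. These were the glutathione-degrading Chac1 (-0.88, adjusted p = 0.000651), the asparagine synthetase Asns (-1.19, adjusted p = 0.00218), the folate enzyme Mthfd2 (-0.75, adjusted p = 0.0143) and the pseudokinase Trib3 (-0.84, adjusted p = 0.0105). The list as a whole had a median of -0.10, with 10 members positive and 11 negative, and 3 of the 4 calls were shared. Its median was -0.24 in WT and 0.20 in fat-1 hearts, with 19 of 21 members higher in fat-1 hearts. Without the 3 hearts that stand apart the medians were -0.26 and -0.16. Of 27 targets of hypoxia-inducible factors the collagen hydroxylase P4ha1 was upregulated (0.68, adjusted p = 0.00376) and the glycolytic regulator Pfkfb3 downregulated (-0.83, adjusted p = 0.00633). Each is 3.7% of the list, beside 2.83% upregulated and 1.47% downregulated over all genes tested. P4ha1 lost its call without the 3 hearts that stand apart, and Pfkfb3 kept it in all 37 alternative settings.

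Among 32 genes of the BCL2 family and death receptors 2 were upregulated and 4 downregulated. Bcl2l1, which protects mitochondria, was at 2.12 to 3.57 FPKM (median 2.67) in Con and 3.34 to 7.68 FPKM (median 4.47) in IR hearts, with 8 IR hearts above the Con range (log2 fold change 0.75, adjusted p = 0.00179). Cflar, the inhibitor of caspase 8, had a log2 fold change of -0.59 (adjusted p = 0.00313), and the NF-kB-induced Bcl2a1d one of -1.24 (adjusted p = 0.0101). The call of Cflar was lost in 9 of 37 alternative settings. Pmaip1 (0.66, adjusted p = 0.0416) and Bik (-0.64, adjusted p = 0.0405), which both promote death, were called in opposite directions, and the calls were lost in 19 and 22 of 37 alternative settings. Of 22 p53 targets 2 were upregulated and 1 downregulated, and the downregulated death receptor Eda2r was at 1.06 to 4.11 FPKM (median 2.75) in Con and 0.976 to 1.53 FPKM (median 1.30) in IR hearts (log2 fold change -1.0, adjusted p = 0.000483).

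The aryl hydrocarbon receptor and its main target moved apart. Ahr was at 0.426 to 0.943 FPKM (median 0.711) in Con and 1.39 to 2.21 FPKM (median 1.75) in IR hearts, without overlap (log2 fold change 1.23, standard error 0.13, adjusted p = 2.45e-06). Cyp1a1, the monooxygenase that AHR switches on, was at 1.79 to 7.56 FPKM (median 5.14) in Con and 0.209 to 1.83 FPKM (median 0.705) in IR hearts, with 9 IR hearts below the Con range (log2 fold change -2.72, standard error 0.29, adjusted p = 5.25e-06). The other 6 tested genes of this list were not called.

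Receptors and channels were represented by a few genes. Of 19 apelin, angiotensin and adrenergic receptor genes 3 were upregulated. Aplnr, the apelin receptor, was at 0.437 to 2.60 FPKM (median 1.58) in Con and 1.70 to 8.98 FPKM (median 3.14) in IR hearts, with 5 IR hearts above the Con range (log2 fold change 1.37, standard error 0.32, adjusted p = 0.0107). Its change was 2.18 in WT and 0.56 in fat-1 hearts, so it was not among the shared genes. The difference between the genotypes did not pass limma's interaction test after adjustment over all genes (adjusted p = 0.831). At an unadjusted p under 0.05 that test picked 2 of the 19 genes (10.5%), 1 of them upregulated, against 5.31% of all genes tested. Rgs4, which shortens G protein signals, was at 2.63 to 4.75 FPKM (median 3.34) and 5.05 to 7.92 FPKM (median 6.22), without overlap (log2 fold change 0.84, adjusted p = 3.26e-05). Kcna5, a voltage-gated potassium channel, was at 2.06 to 3.06 FPKM (median 2.74) and 3.38 to 5.45 FPKM (median 4.68) and was the only called gene of 27 for ion channels and calcium handling (log2 fold change 0.77, adjusted p = 1.1e-05). Irs2, an adaptor of the insulin receptor, was at 3.21 to 12.8 FPKM (median 7.67) and 8.42 to 28.6 FPKM (median 19.3), with 9 IR hearts above the Con range (log2 fold change 1.21, adjusted p = 0.000727).

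Energy metabolism gave no calls in 30 genes of fatty acid oxidation, 42 nuclear respiratory chain subunits and 15 transcripts of the mitochondrial genome, with medians of -0.10, -0.01 and 0.02. Of all genes tested 4.3% were called, so 0 in lists of this size is near that share. The respiratory chain had a median of -0.22 in WT and 0.23 in fat-1 hearts, and the mitochondrial genome 0.39 and -0.32. WT-Con 5 and Fat1-IR 1 were the highest hearts of their arms for the respiratory chain and the lowest for the mitochondrial genome. The medians were 0.01 and 0.09 for the respiratory chain and 0.15 and 0.10 for the mitochondrial genome without the 3 hearts that stand apart. Without WT-Con 5 alone the pooled median of the mitochondrial genome was -0.11, and without Fat1-IR 1 alone 0.23. At an unadjusted p under 0.05 limma had 3 genes of fatty acid oxidation lower, 0 respiratory chain subunits and 2 mitochondrial transcripts higher, and voom called 0 in each. The oxidation enzyme Hadha averaged 157 to 137 FPKM (adjusted p = 0.0891). The mitochondrial ribosomal RNA mt-Rnr2 averaged 4856 to 6587 FPKM (log2 fold change 0.44, adjusted p = 0.0529). Elovl5, which lengthens polyunsaturated fatty acids, was at 4.52 to 6.68 FPKM (median 5.38) in Con and 7.93 to 11.3 FPKM (median 9.32) in IR hearts, without overlap (log2 fold change 0.78, standard error 0.07, adjusted p = 1.11e-06), and changed by 0.75 in WT and 0.82 in fat-1 hearts. The desaturase Scd1 was called at 1.45 (adjusted p = 0.0308), reaching 39.5 FPKM in an IR heart, and adipocyte markers reached 139 FPKM in sum in an IR heart, against 7.63 to 21.8 FPKM in Con hearts. Scd1 lost its call in 9 of 37 alternative settings, among them those without Fat1-IR 4 and without the 3 hearts that stand apart.

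Of 24 cytoskeletal actins and targets of the factor SRF, 3 were downregulated and 0 upregulated, while 17 had positive log2 fold changes (median 0.21). The downregulated members were Xirp2, Flnc and Ankrd1. Xirp2, which binds actin at the intercalated disc, was at 45.7 to 172 FPKM in Con and 31.7 to 56.6 FPKM in IR hearts, with 8 IR hearts below the Con range (log2 fold change -1.24, adjusted p = 7.93e-05). Flnc, the muscle filamin, was at 75.5 to 279 FPKM (median 159.8) and 35.7 to 106 FPKM (median 71.8) (log2 fold change -1.14, adjusted p = 0.000847). Lmod2, outside that list, which nucleates thin filaments, was the most abundant gene called in either direction, at 637 to 1009 FPKM (median 835) in Con and 351 to 815 FPKM (median 501) in IR hearts (log2 fold change -0.72, adjusted p = 0.000866). Ankrd1, a stretch sensor of the sarcomere, was at 554 to 990.3 FPKM (median 721) and 271 to 647 FPKM (median 524) (log2 fold change -0.62, adjusted p = 0.00951). It was -0.93 in WT and -0.31 in fat-1 hearts and not shared. Cited2, a coactivator that hypoxia and cytokines induce, was at 87.5 to 148 FPKM (median 124) in Con and 37.5 to 70.1 FPKM (median 63.7) in IR hearts, without overlap (log2 fold change -1.09, adjusted p = 1.15e-06).

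In bulk tissue, fewer cells of a type and less RNA per cell cannot be told apart, so marker lists are given. Of 13 cardiomyocyte markers 0 were called (median log2 fold change -0.05), and of 11 smooth muscle and pericyte markers 0, beside 4.3% of all genes tested. At an unadjusted p under 0.05 limma had 0 of the former and 4 of the latter, all 4 higher in IR hearts, and voom on fragments called 0 in both. Of 12 fibroblast markers 1 was upregulated and all 12 had positive log2 fold changes (median 0.31). Fibroblast markers summed to 445 to 718 FPKM in Con and 501 to 788 FPKM in IR hearts. Of 18 endothelial markers the VEGF receptor Kdr (0.78, adjusted p = 0.00818) and the water channel Aqp1 (0.60, adjusted p = 0.00702) were upregulated and the lumen factor Rasip1 (-0.83, adjusted p = 0.000545) and the tight junction gene Cldn5 (-0.92, adjusted p = 0.043) downregulated, the last a call that 16 of 37 alternative settings lost. The call of Aqp1 was lost in 9 of 37. The endothelial list summed to 374 to 553 FPKM in Con and 425 to 620 FPKM in IR hearts (median log2 fold change 0.29). Its part in the changes of endothelial factors was not tested. Of 15 markers of resident macrophages Lyve1 (0.73, adjusted p = 0.0036) and Cd163 (0.65, adjusted p = 0.0355) were upregulated and Timd4 (-0.74, adjusted p = 8.1e-05) downregulated. Cd163 lost its call in 16 of 37 alternative settings, among them that without the 3 hearts that stand apart. The macrophage list summed to 78.7 to 197 FPKM in Con and 94.9 to 156 FPKM in IR hearts. The medians of that sum were 116 FPKM in WT-Con, 148 FPKM in WT-IR, 87.7 FPKM in Fat1-Con and 102 FPKM in Fat1-IR hearts. Its part in the changes of inflammatory genes was not tested.

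The 5 tested neutrophil and monocyte markers summed to 0.819 to 1.68 FPKM in Con and 1.09 to 7.38 FPKM in IR hearts, and the 12 lymphocyte markers to 1.52 to 35.2 and 1.75 to 226 FPKM. All 12 lymphocyte markers had positive log2 fold changes, with a median of 0.94, which was 0.30 without the 3 hearts that stand apart. The highest values were those of Fat1-IR 4 and, among Con hearts for lymphocytes, WT-Con 1. None of these markers was called by limma, with 1 neutrophil and 0 lymphocyte markers at an unadjusted p under 0.05 and 1 and 0 called by voom. Of 7 red cell and platelet markers the beta-globin Hbb-bs was called (1.69, adjusted p = 0.0409), and 19 of 37 alternative settings lost that call. These markers summed to 10.5 to 57.5 FPKM in Con hearts, highest in WT-Con 5, and 10.4 to 34.1 FPKM in IR hearts (median log2 fold change 0.70).

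Adipocyte markers had the largest median of the 46 lists (1.28), with 0.29 in WT and 2.21 in fat-1 hearts. None of the 9 was called by limma or by voom on fragments, and 7 were higher at an unadjusted p under 0.05. They summed to 7.63 to 21.8 FPKM in Con hearts and 10.2 to 139 FPKM in IR hearts, with Fat1-IR 1 (139 FPKM), Fat1-IR 5 (51.7 FPKM), Fat1-IR 4 (26.7 FPKM) and WT-IR 1 (22.5 FPKM) above the Con range. The median was 0.82 without the 3 hearts that stand apart. Of 9 mesothelial markers the transcription factor Wt1 was downregulated (-0.59, adjusted p = 0.0433), a call that 20 of 37 alternative settings lost, and the median was 0.28. Of 8 Schwann cell markers 0 were called by limma or voom, with 3 higher at an unadjusted p under 0.05 (median 0.28).

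**Figure D3:**
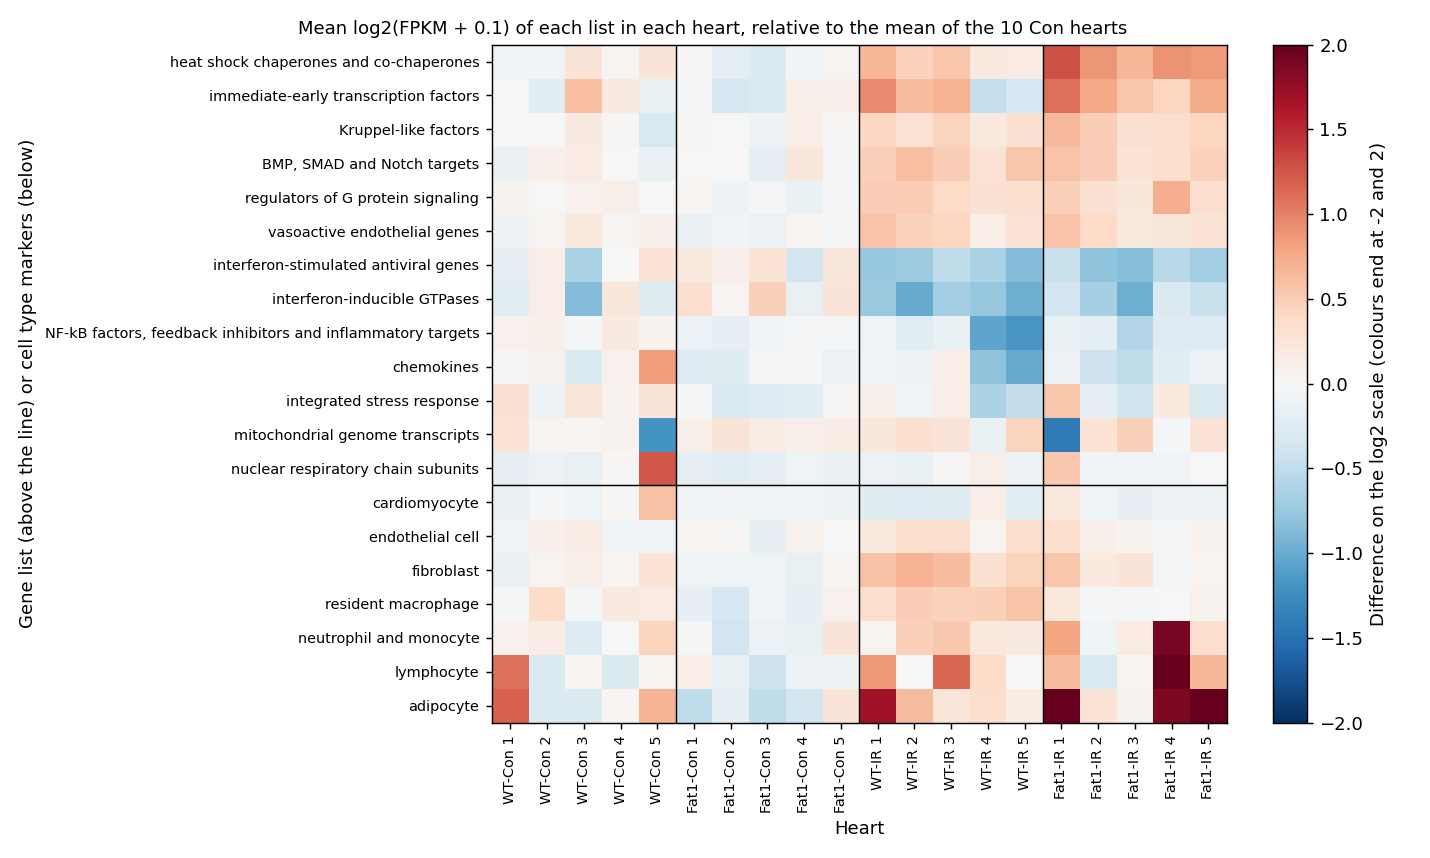
Each cell is the mean log2(FPKM + 0.1) of a gene list in 1 heart minus its mean over the 10 Con hearts, red where higher and blue where lower, with colours ending at -2 and 2. Both interferon lists are below the Con mean and chaperones above it in all IR hearts, and WT-Con 5, Fat1-IR 1 and Fat1-IR 4 stand apart in the mitochondrial, respiratory chain and lymphocyte rows.

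The response found in each genotype was then looked up in the other, which shares no heart with it. Both contrasts came from the same fit of 4 group means, with a common estimate of each gene's spread. A gene with a small spread therefore tends to pass in both genotypes. The percentages below are not an independent replication, and those over all genes tested do not allow for this. Of 367 genes upregulated in WT hearts (2.01% of those tested), 224 (61.0%) had the same sign and an unadjusted p under 0.05 in fat-1 hearts, against 8.38% of all genes tested. Of 216 downregulated in WT hearts (1.19%), 151 (69.9%) did so, against 4.17%. In the other direction it was 166 (70.3%) of the 236 genes upregulated in fat-1 hearts (1.3% of those tested), against 9.84%, and 107 (83.6%) of the 128 downregulated (0.703%), against 5.09%. The genes called in WT hearts had median log2 fold changes of 0.95 and -1.04 there and 0.51 and -0.67 in fat-1 hearts. Those called in fat-1 hearts had 1.17 and -1.01 there and 0.75 and -0.91 in WT hearts. Called in both genotypes were 106 upregulated and 81 downregulated genes.

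**Figure D4:**
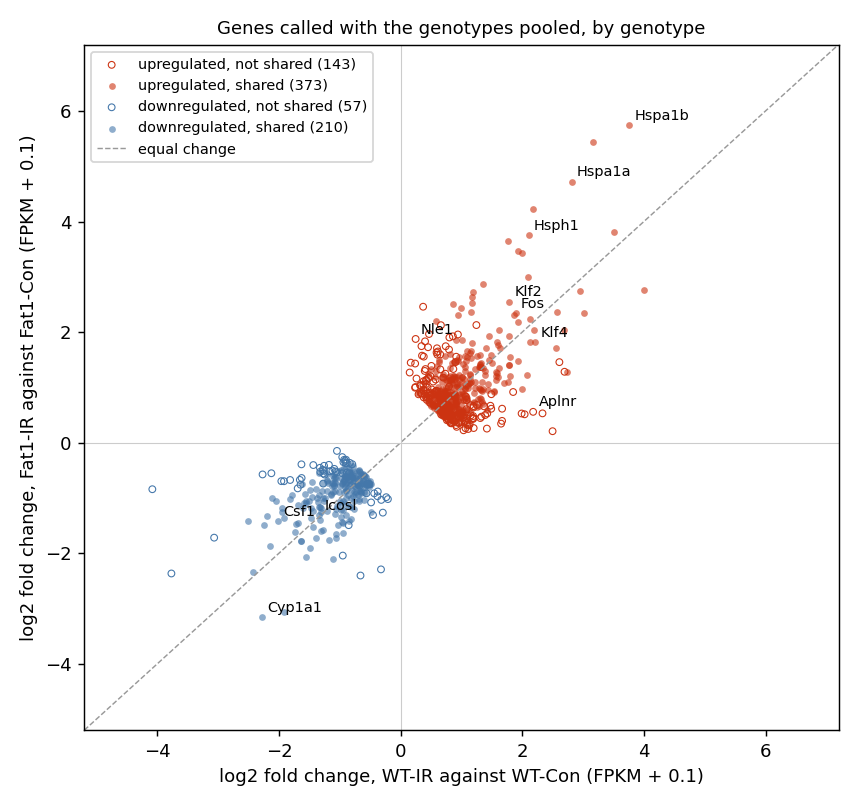
Each point is a gene called with the genotypes pooled, with the log2 fold change of WT hearts on the horizontal and of fat-1 hearts on the vertical axis; filled points are shared genes and the dashed line marks equal change. The 516 upregulated genes lie in the upper right and the 267 downregulated genes in the lower left, chaperones such as Hspa1b and Hsph1 lie above the line and Aplnr below it.

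All 783 called genes had the same sign in both genotypes, to which the pooled test itself contributes. An interaction p under 0.05 was found in 84 of the upregulated genes (16.3%) and 32 of the downregulated genes (12%), against 5.31% of all genes tested. Of the 84, 44 changed more in fat-1 and 40 more in WT hearts, and of the 32, 7 changed more in fat-1 and 25 more in WT hearts. After adjustment over all genes limma called 1 interaction (0.00549% of those tested). This was Nle1, a factor of ribosome assembly, at 1.45 to 2.50 FPKM (median 1.80) in Con and 1.93 to 7.73 FPKM (median 4.47) in IR hearts. Its log2 fold change was 0.25 in WT and 1.88 in fat-1 hearts, a difference of 1.63 (standard error 0.22, adjusted p = 0.00976).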

How the data were processed

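RNA of 20 perfused mouse hearts was sequenced after NEBNext Ultra library preparation. The deposited values are FPKM per gene for each heart, which the authors made with HISAT2 and featureCounts on mm10 (versions and strand setting not given in the sources used here). Dividing out GENCODE exon lengths returned whole fragments (within 0.02, checked below 1000) for 30746 of 31217 annotated genes (98.5%), and 657 gene IDs were not in that annotation. A gene was kept when its mean over all hearts reached 0.1 FPKM (18219, with 13655 left out). limma 3.58.1 in R 4.3.3 was fitted to log2(FPKM + 0.1) with a variance trend and genotype as a covariate, two-sided, with Benjamini-Hochberg adjustment over all genes tested. Contrasts within each genotype and the interaction came from a fit of 4 group means. Scripts were tested on simulated data. Python 3.11.15, pandas 2.3.3 and matplotlib 3.10.9 were used for counts and plots.

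The 20 hearts are separate samples per the labels, and p-values measure the spread between them. Named genes were the 15 in each direction with the smallest p among calls without overlap between arms, up to 5 called members of each list with the smallest p (or the 2 smallest where fewer than 2 were called), the 5 most abundant called genes in each direction, called genes with an adjusted interaction p under 0.05, and Aplnr. A gene that this rule names is not reported here. Further genes were named after their values were seen, among them Icam1, Sele, Tnf, Rela, Relb, Nfkb2, Il6, Ifit1, Isg15, Irf7, Irf9, Bag3, Hspe1 and all genes of the closing observations. The members and the 46 gene lists (35 pathway and 11 marker lists) were chosen with earlier results of these data known, so lists are described by counts and medians without a set test. Member counts at an unadjusted p under 0.05 in the pooled fit stand without the share over all genes, which limits their reading. Alternatives covered pseudocount, filter, scaling, model, variance, fold threshold and each heart left out. Voom on the fragments, protein-coding genes only and leaving out 3 hearts were chosen after seeing the data. Promoter sequences are those of RefSeq on GRCm38.p6, and 342 of 516 upregulated and 187 of 267 downregulated genes matched one.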

Additional observations from a re-analysis of the deposited data

Results flagged for a closer look

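In each arm of 10 hearts a value was looked at again when the highest or lowest heart stood apart from the other 9 by more of the arm's range than Dixon's critical value at 95% allows. Chance gives about 1 in 20, and 47 of 382 arms of genes and 19 of 92 arms of gene lists stood out. WT-Con 5 accounted for 23 genes and 12 lists and WT-Con 3 for 8 genes.

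WT-Con 4 was the highest heart of its arm for Prkd2 (18.4 FPKM). WT-IR 4 was the lowest heart of its arm for Prkd2 (3.35 FPKM), Hspa1b (63.3 FPKM), Hspa1a (30.8 FPKM) and Zbtb46 (1.88 FPKM). WT-Con 1 was the highest heart of its arm for Meox1 (15.4 FPKM). WT-Con 5 was the lowest heart of its arm for Sema7a (15.4 FPKM), Eda2r (1.06 FPKM), Irs2 (3.21 FPKM), Cflar (6.97 FPKM), Kdr (5.28 FPKM), Unc5b (1.38 FPKM), Nrap (90.5 FPKM), Icam1 (139.9 FPKM), Nod2 (5.07 FPKM), Klhl34 (2.84 FPKM), Sele (39.3 FPKM) and Tlr4 (3.17 FPKM). WT-Con 3 was the highest heart of its arm for Spry1 (4.35 FPKM) and Btg2 (236 FPKM). WT-IR 5 was the lowest heart of its arm for Mx1 (0.537 FPKM) and Tlr4 (2.52 FPKM). Fat1-IR 4 was the lowest heart of its arm for Kcna5 (3.38 FPKM). WT-Con 3 was the lowest heart of its arm for Gbp5 (5.52 FPKM), Xaf1 (2.87 FPKM), Gbp3 (6.79 FPKM), Tgtp1 (2.12 FPKM), Tap1 (2.45 FPKM) and Gbp2 (13.8 FPKM). Fat1-Con 2 was the lowest heart of its arm for Lfng (0.134 FPKM). WT-Con 5 was the highest heart of its arm for Rasip1 (27.2 FPKM), Cxcl16 (25.0 FPKM), Ccl2 (486 FPKM), Bcl2a1d (23.8 FPKM), Phlda3 (5.05 FPKM), Gm8696 (0.332 FPKM), Tgfb1 (15.2 FPKM), Isg15 (145 FPKM), Ccl5 (34.3 FPKM), Relb (17.6 FPKM) and Hspe1 (213 FPKM). Fat1-IR 4 was the highest heart of its arm for Scd2 (7.75 FPKM) and Cxcr4 (12.3 FPKM). WT-Con 1 was the lowest heart of its arm for Clec14a (0.347 FPKM). Fat1-IR 5 was the lowest heart of its arm for mt-Th (26.4 FPKM). WT-IR 5 was the highest heart of its arm for Thsd1 (1.92 FPKM). Fat1-Con 4 was the highest heart of its arm for Bmp4 (2.70 FPKM).

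The following values are means of log2(FPKM + 0.1) over a list. For chemokines (4.27), NRF2 targets and metallothioneins (4.15), BCL2 family and death receptors (1.89), ribosome biogenesis (2.61), proteasome (5.69), nuclear respiratory chain subunits (9.01) and cardiomyocyte markers (10.30), WT-Con 5 was above the other hearts of its arm. For NRF2 targets and metallothioneins (4.11), proteasome (5.27) and nuclear respiratory chain subunits (8.31), Fat1-IR 1 was above the other hearts of its arm. For insulin, PI3K, AKT and FOXO (1.66), cold-inducible RNA-binding and splicing factors (3.36), cardiac ion channels and calcium handling (3.58), sterol and fatty acid synthesis (0.76) and mitochondrial genome transcripts (11.79), WT-Con 5 was below the other hearts of its arm. For mitochondrial genome transcripts (11.57), Fat1-IR 1 was below the other hearts of its arm. For neutrophil and monocyte markers (-0.073) and lymphocyte markers (3.19), Fat1-IR 4 was above the other hearts of its arm. For lymphocyte markers (-1.31), WT-Con 1 was above the other hearts of its arm.

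The response of Nle1 differed between the genotypes by the interaction test of limma, by 1.63 on the log2 scale (fat-1 minus WT, adjusted p = 0.00976). In fat-1 hearts it rose from a mean of 1.68 to 6.48 FPKM, and in WT hearts it averaged 2.12 and 2.53 FPKM. No gene passed the interaction test after adjustment without the 3 hearts that stand apart, and 1365 genes had an unadjusted p under 0.05 in limma.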

How the results depend on the processing

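Counts of upregulated and downregulated genes (516 and 267) changed with thresholds, with the treatment of low values and with the hearts used. With a pseudocount of 1 they were 177 and 165, with 139 shared upregulated genes. At a mean of at least 1 FPKM 291 genes were upregulated and 220 shared. With a fold change over 2 there were 176 and 100 (141 and 82 shared), and with no fold threshold 809 and 479 (336 shared downregulated). WT hearts alone gave 138 and 66 and fat-1 hearts alone 280 and 175, with fewer samples. Leaving out each heart in turn gave 444 (without WT-Con 1) to 699 (without WT-Con 5) upregulated and 232 to 330 downregulated genes, and 328 to 458 and 186 to 239 shared. Median-of-ratios scaling gave 426 and 322 and voom on fragments, chosen after seeing the data, 600 and 289. Without the 3 hearts that stand apart 81.4% and 94.8% of the calls remained. The replicate block gave 509 and 252 (378 and 209 shared). Same-numbered hearts did not deviate together over all genes tested (30 pairs, r from -0.136 to 0.0604), so no pairing by number was seen. A correlation over all genes cannot exclude a pairing that affects only some of them. Of 191 called genes examined, 139 kept their call in every alternative, 27 lost it in 1 to 5 and 25 in more, among them Hspb1, Pmaip1, Bik and Hbb-bs. Psmd3 turned to 0.0098 in fat-1 hearts alone and Hspa8 to -0.11 in WT hearts alone, neither being called; the cause was not tested. Values of single fragments limit genes near 0.1 FPKM. The median of the mitochondrial genome list could not be given with scaling that leaves that genome out, nor that of the neutrophil and monocyte list at a mean of at least 1 FPKM.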

Other observations

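Transcription factors and surface proteins of endothelium outside the lists above, chosen after their values were seen, moved in both directions. Hhex (log2 fold change 1.30), Hlx (1.31), Meox2 (0.74), Foxc1 (0.97), Lyl1 (1.24) and Elk3 (0.64) were upregulated, and Bcl6b (-0.70) and Zbtb46 (-0.85) were downregulated. Tmem204, a regulator of VEGF receptor signaling, was at 2.69 to 5.57 FPKM (median 3.98) in Con and 6.52 to 12 FPKM (median 8.65) in IR hearts (log2 fold change 1.14, adjusted p = 5.27e-06). Clec14a, a C-type lectin of vessels, was at 0.347 to 1.53 FPKM (median 0.987) and 2.06 to 4.60 FPKM (median 2.89) (log2 fold change 1.5, adjusted p = 2.44e-05), and Myct1 had a log2 fold change of 1.25 (adjusted p = 1.48e-05). Unc5b, a netrin receptor of arterial endothelium, was upregulated as well (0.78, adjusted p = 5.68e-05).

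Some genes of innate sensing and cytokines, chosen after their values were seen, changed as follows. Tlr1 averaged 2.0 to 0.657 FPKM from Con to IR (log2 fold change -1.48, adjusted p = 1.98e-06), Tlr4 10.1 to 5.56 FPKM (-0.82, adjusted p = 0.0146) and Tlr6 0.465 to 0.204 FPKM (-0.88, adjusted p = 0.0191). Il12b, a subunit of interleukin-12 and -23, was at 1.46 to 4.98 FPKM (median 2.28) in Con and 0.186 to 1.0 FPKM (median 0.601) in IR hearts (log2 fold change -2.0, adjusted p = 1.32e-05), and Il27 (-1.34) and its partner Ebi3 (-1.28) fell with it. Irak2, a kinase of this pathway, had a log2 fold change of -0.76 (adjusted p = 0.00023). Il10, an anti-inflammatory cytokine (1.44, adjusted p = 0.00141), and Socs3, an inhibitor of cytokine receptors (1.45, adjusted p = 2.48e-05), were upregulated.

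Of genes of striated muscle outside the lists, these were chosen after their values were seen and were downregulated: Nrap (-0.96, adjusted p = 5.96e-05), Klhl41 (-0.86, adjusted p = 0.00906) and Lmcd1 (-1.09, adjusted p = 0.000494). Of 21 tested mitochondrial tRNAs 4 were downregulated and 0 upregulated, with a median log2 fold change of -0.50. Of 199 tested genes that lie within 10000 bases of the 3′ end of a gene with at least 100 FPKM, 11 (5.53%) were upregulated and 0 downregulated, against 501 of 17707 others (2.83%). Among the 11 were Gm8696, a pseudogene past Hspa1b (0.0332 to 1.97 FPKM), and Cmtm5, past Myh6 (0.143 to 1.08 FPKM). Hspa1b itself, past Hspa1a, and 1110038B12Rik, past Hspa1b, were also among them. Hspa1a and Hspa1b were below 100 FPKM in every Con heart and passed that cut only through their IR values. The 5.53% therefore rests in part on selection by the IR response, and the percentage without these genes is not given here.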
